A study of Mus musculus with 38 samples.

Results

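The comparison described here sets T cells that lack the glucocorticoid receptor (GR) against T cells that carry it, after both had entered the inflamed central nervous system (CNS). It rests on 8 of the 38 samples of the series, 4 GR cKO and 4 GR WT libraries, all labelled C57/B6. The 8 were taken by their labels, with no measured value used in the choice. In both groups the cells carried the 2D2 T cell receptor, which recognises a myelin peptide. They had been differentiated from naive cells into inflammatory Th17 cells (Th17Inf) in culture, transferred into WT recipient mice, and taken from brain and spinal cord when disease was at its peak in experimental autoimmune encephalomyelitis (EAE), a mouse model of multiple sclerosis. Each library was made from 2000 sorted 2D2+ cells with a SMART-Seq2 type protocol that amplifies polyadenylated RNA for 12 cycles. GR was deleted conditionally in the GR cKO donors; the Cre driver, the deleted exon and the number of mice behind each group are not given in the sources used here. Age and sex are not given either, and nothing says whether the 4 libraries of a group came from separate mice, so the p-values measure the spread between these libraries, which may be partly technical. The recipients were WT, so their own T cells, B cells and myeloid cells were present in the tissue from which the 2D2+ cells were sorted.

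GR, encoded by Nr3c1, is a nuclear receptor that sits in the cytoplasm in a complex with heat shock protein 90 and the FKBP co-chaperones, and moves to the nucleus when it binds cortisol, corticosterone or a drug such as dexamethasone (Dex). There it binds an inverted repeat of the half-site AGAACA and raises genes that restrain inflammation and growth, such as Tsc22d3 (the leucine zipper protein GILZ), Ddit4 (an inhibitor of mTORC1) and Fkbp5 (a co-chaperone that feeds back on GR). It also lowers inflammatory genes by acting on NF-kB and AP-1. In T cells glucocorticoids are known for inducing death of thymocytes, dampening T cell receptor signals and raising the IL-7 receptor.

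Levels are given as counts per 1000000 counts of a library (CPM), in the order GR cKO libraries 5, 6, 7 and 9 and GR WT libraries 1, 2, 3 and 4. Total counts ran between 6281769 and 7568299 in GR cKO libraries and between 6318762 and 9159671 in GR WT libraries, so that 3 counts, the limit that a count of 0 allows, correspond to 0.328 to 0.478 CPM. Between 31.6% and 42.2% of these counts lay on 17 repeat features. The transferred receptor was seen in all 8 libraries: Trbv16, the beta chain variable segment of the 2D2 receptor, made up 99.2% to 99.5% of Trbv counts, and Trav9-3, its alpha chain segment, with its near-identical copies 86.0% to 87.9% of Trav counts. Cd4 was at 156 to 214 CPM in GR cKO and at 227 to 325 CPM in GR WT libraries, and Cd8a reached at most 1.59 CPM.

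Nr3c1 (chr18:39410545-39519421, mm10) was the gene with the lowest adjusted p of all. It had 5.66, 5.50, 5.68 and 5.25 CPM in the GR cKO libraries, against 18.0, 14.9, 11.1 and 14.3 CPM in the GR WT libraries. The groups did not overlap, and every GR cKO library lay close to 5.5 CPM. The log2 fold change was -1.30 ± 0.16 (SE; 4 libraries a group), which leaves 0.407 of the GR WT level, with an edgeR adjusted p of 0.113 and a DESeq2 adjusted p of 1.78e-05. The count covers the whole gene, so it does not show which exon was removed. The share of this count that comes from recipient cells was not measured.

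Across the transcriptome, 11148 genes had enough counts to be tested. edgeR's quasi-likelihood test, with p-values adjusted by Benjamini and Hochberg over all of them, called 0 genes (0%) at 0.05, and also 0 at 0.10. Without adjustment 1226 genes (11%) had an edgeR p under 0.05, of which 634 (5.69%) were higher in GR cKO and 592 (5.31%) lower. These genes are called nominally higher or lower from here on. Counts of such genes in the lists below are to be read against these shares. Their number was 783 without GR cKO 5, and 672 once macrophage RNA was a covariate of the fit. DESeq2, run as the other tool, called 122 genes (1.09%), 66 higher (0.592%) and 56 lower (0.502%), and all 122 were among the nominal ones. In CPM, 745 genes (6.68%) had groups without overlap, 146 higher (1.31%) and 599 lower (5.37%) in GR cKO. After TMM scaling, which the fold changes use, 720 genes did not overlap, 296 higher (2.66%) and 424 lower (3.8%). List counts of DESeq2 calls and of genes without overlap are to be read against these shares too. The median log2 fold change of all genes was -0.00 with TMM scaling and -0.10 in unscaled CPM. When the libraries were instead scaled to their T cell markers it was 0.35, and under that scaling a gene's change is to be read against 0.35.

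**Figure D1:**
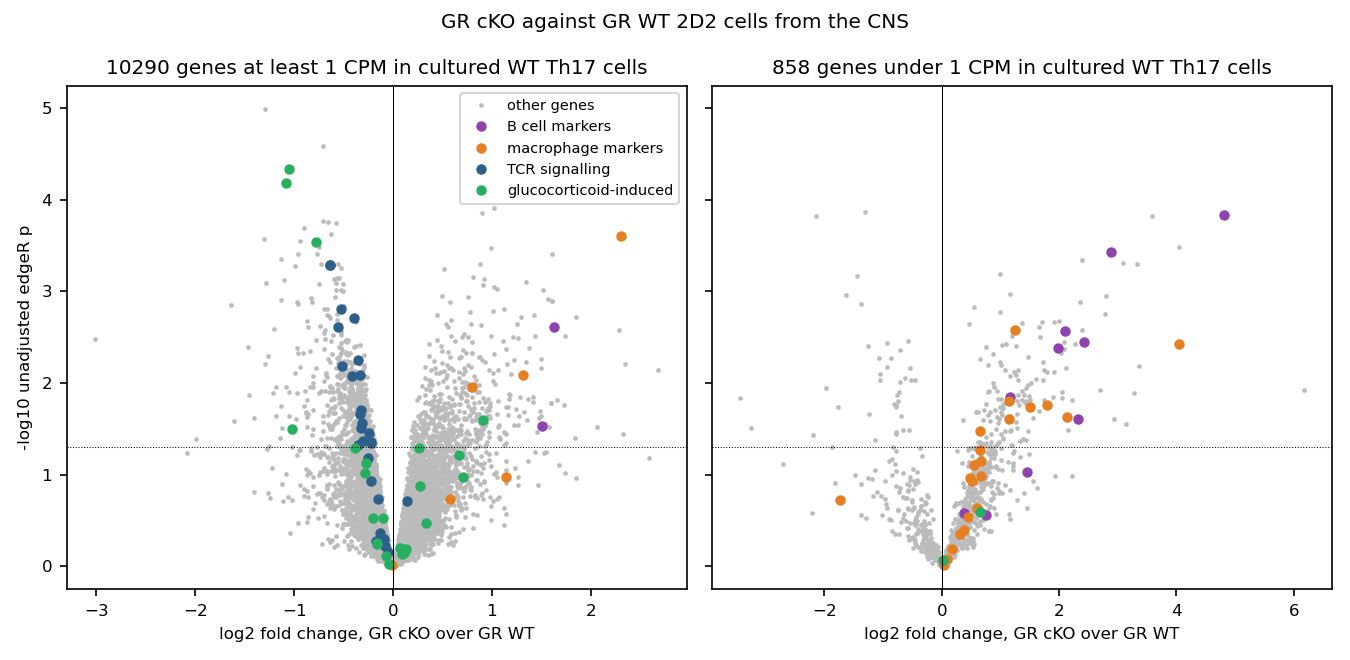
Each dot is one gene of the comparison of 4 GR cKO and 4 GR WT libraries, with the log2 fold change of GR cKO over GR WT on the x axis and the -log10 of the unadjusted edgeR p on the y axis; the dotted line marks the threshold of 0.05. The 10290 genes seen in cultured WT Th17 cells are on the left and the 858 genes under 1 CPM there on the right, where most B cell and macrophage markers lie to the right of 0.

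To keep RNA of other cells apart from genes of the T cells, genes were divided by a separate measurement in the series. The 4 control cultures of WT Th17Inf cells (genotype WT, C57/B6, 2000 live cells each) contain no CNS tissue, and 10290 of the genes tested averaged at least 1 CPM in them. Among these genes 1035 (10.1%) passed the unadjusted threshold, 481 nominally higher in GR cKO (4.67%) and 554 lower (5.38%), with a median of -0.01. The other 858 genes were under 1 CPM in the cultures, and of them 153 were nominally higher (17.8%) and 38 lower (4.43%). Their median log2 fold change was 0.31, but 0.00 once each library's level of macrophage RNA was a covariate of the fit, and 0.10 without the library richest in macrophage RNA (GR cKO 5) and the poorest (GR WT 1). Some of the 28 markers that make up this covariate, such as Chil3 and Cybb, are themselves among these genes. DESeq2 called 37 higher and 52 lower among the genes seen in culture, and 29 higher (3.38%) and 4 lower (0.466%) among those that were not. CPM was without overlap for 675 genes seen in culture (6.56%), 101 higher (0.982%) and 574 lower (5.58%), and for 70 of the others (8.16%), 45 higher (5.24%) and 25 lower (2.91%). A gene under 1 CPM in culture can still be one that T cells switch on in tissue. A gene seen in culture can likewise hold RNA of other cells in the CNS libraries. The class II gene H2-Aa averaged 2.66 CPM in the cultures and had 471 to 1394 CPM in the CNS libraries. The immunoglobulin gene Ighm averaged 46.3 CPM in the cultures. The genes seen in culture are therefore not T cell genes alone.

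Of the genes that glucocorticoids are known to induce, 3 stood apart in GR cKO cells. Tsc22d3 (chrX:140539528-140600659) had 78.1, 62.2, 59.6 and 51.4 CPM in GR cKO, against 114, 185, 129 and 146 CPM in GR WT. Its log2 fold change was -1.09 ± 0.17 (SE), with adjusted p-values of 0.153 in edgeR and 3.05e-06 in DESeq2. Ddit4 (chr10:59949669-59951834) had 9.02, 12.1, 7.66 and 9.07 CPM in GR cKO, against 20.9, 20.7, 23.9 and 18.1 CPM in GR WT, a log2 fold change of -1.05 ± 0.15. All 4 GR cKO libraries were below all 4 GR WT libraries for both genes. Txnip (chr3:96557957-96561883), which binds thioredoxin and limits glucose uptake, had 55.7, 54.6, 65.9 and 50.9 CPM in GR cKO, against 98.5, 134, 97.3 and 88.9 CPM in GR WT, a log2 fold change of -0.78 ± 0.14. It did not overlap either. With the macrophage covariate the log2 fold changes were -1.41 for Tsc22d3, -1.09 for Ddit4 and -0.92 for Txnip, so none of them was smaller with that covariate, and the edgeR adjusted p of Tsc22d3 was then 0.0120, the only gene called in that fit. With T cell marker scaling they were -0.73, -0.70 and -0.43.

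Other classical targets did not stand apart in this way. Fkbp5 had 18.0, 14.7, 7.14 and 7.64 CPM in GR cKO, against 10.6, 12.1, 12.98 and 11.7 CPM in GR WT, and its log2 fold change was 0.09 ± 0.28, or -0.20 without GR cKO 5. GR cKO libraries 5 and 6 were above all GR WT libraries and GR cKO libraries 7 and 9 below them. Sgk1, a kinase that promotes Th17 differentiation, had 137, 77.3, 120 and 57.3 CPM in GR cKO, against 26.5, 105, 74.4 and 53.6 CPM in GR WT. Its log2 fold change of 0.71 ± 0.40 became -0.14 with the macrophage covariate, and its level was lowest in GR WT 1 and highest in GR cKO 5, the libraries with the least and the most macrophage RNA. Per1, a clock gene, had a log2 fold change of -0.39 ± 0.17 (edgeR adjusted p = 0.454), Cxcr4, the receptor of CXCL12, -1.02 ± 0.41 at no more than 4.75 CPM, and Il7r, the IL-7 receptor chain, 0.11 ± 0.29, or -0.23 without GR cKO 7 and -0.04 without GR WT 4. Il1r2, the decoy receptor of IL-1, was the one member nominally higher, with 21.3, 12.9, 16.8 and 16.2 CPM in GR cKO, against 12.4, 3.73, 8.55 and 13.6 CPM in GR WT.

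**Figure D2:**
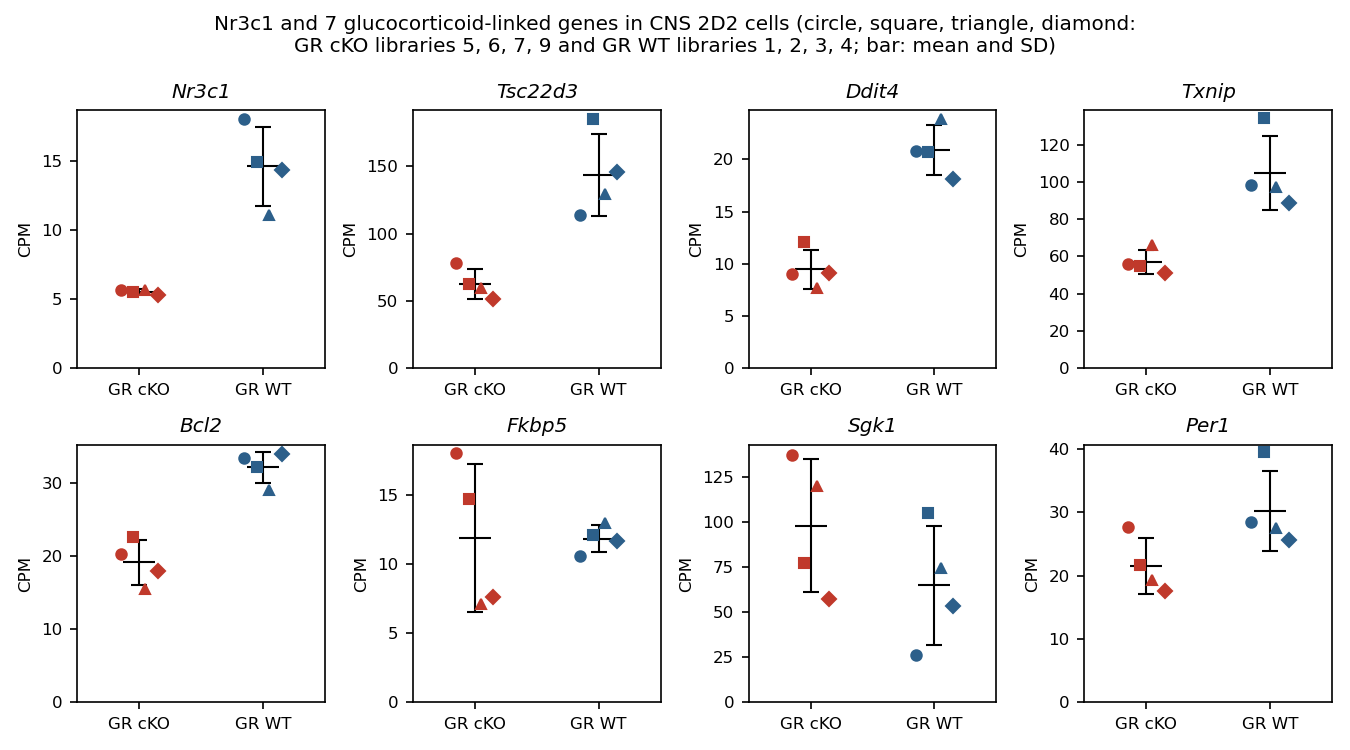
CPM in each library of Nr3c1 and of 7 genes linked to glucocorticoids, with 4 GR cKO libraries on the left and 4 GR WT libraries on the right of each panel; the bars are mean and SD. The groups do not overlap for Nr3c1, Tsc22d3, Ddit4, Txnip and Bcl2, and overlap for Fkbp5, Sgk1 and Per1.

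In all, 25 of the 30 genes on the glucocorticoid-induced list were tested. In GR cKO 4 were nominally lower (Tsc22d3, Ddit4, Txnip and Cxcr4) and 1 was higher, DESeq2 called 3 lower and 0 higher, and the list's median was -0.04, against -0.00 for all genes. It was -0.17 with the macrophage covariate. The 5 that were not tested, Zbtb16, Klf9, Cebpd, Pdk4 and Map3k6, had too few counts. Among 18 tested partners of GR (chaperones, co-chaperones, coregulators and steroid enzymes), 0 were nominally higher and 2 lower. Hsd11b1, the enzyme that regenerates active corticosterone from its inactive form, had 31.5, 42.2, 35.3 and 44.9 CPM in GR cKO and 77.0, 56.8, 51.8 and 48.7 CPM in GR WT. These do not overlap in CPM, but after TMM scaling 0 of the partners were without overlap. The log2 fold change of Hsd11b1 was -0.51 ± 0.16, or -0.23 with the macrophage covariate. Fkbp4, the co-chaperone that carries GR toward the nucleus, was the other, at -0.37 ± 0.15.

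The promoters of 3 of these genes are shown because each holds at least part of the element that GR binds, while only 2 of the genes, Tsc22d3 and Txnip, were nominally lower in GR cKO. Each is the 250 bases before a RefSeq start of the gene in GRCm38.p6 (the same coordinates as mm10), written on the gene's strand, with capitals marking every match of AGAACA, of what it reads on the other strand (TGTTCT), and of ACANNNTGT, the inner part of the element, which reads alike on both strands.
Sgk1 (chr10:21993640-21993889, + strand): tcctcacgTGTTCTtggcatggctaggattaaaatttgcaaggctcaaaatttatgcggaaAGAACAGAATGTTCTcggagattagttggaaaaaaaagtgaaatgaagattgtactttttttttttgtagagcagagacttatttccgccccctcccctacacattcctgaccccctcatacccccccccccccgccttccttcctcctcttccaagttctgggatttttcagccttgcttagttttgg
Tsc22d3 (chrX:140600523-140600772, - strand): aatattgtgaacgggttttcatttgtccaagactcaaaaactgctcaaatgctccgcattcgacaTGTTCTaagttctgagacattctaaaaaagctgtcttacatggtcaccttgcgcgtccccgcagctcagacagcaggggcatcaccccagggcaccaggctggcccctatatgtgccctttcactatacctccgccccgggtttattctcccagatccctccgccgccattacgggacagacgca
Txnip (chr3:96557707-96557956, + strand): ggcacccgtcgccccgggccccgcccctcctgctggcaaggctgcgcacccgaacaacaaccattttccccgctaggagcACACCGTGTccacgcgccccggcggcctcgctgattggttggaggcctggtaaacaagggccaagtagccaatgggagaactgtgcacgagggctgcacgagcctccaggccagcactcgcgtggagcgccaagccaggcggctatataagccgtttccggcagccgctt
The Sgk1 promoter held the whole inverted repeat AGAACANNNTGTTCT, which contains both shorter motifs, 189 to 175 bases before the start, and was one of only 3 promoters that held it among the 32851 in the table (0.00913%). Its other 5 promoters lacked it, and Sgk1 was not nominally lower in GR cKO. The Tsc22d3 promoter held 1 half-site, on the other strand, 185 to 180 bases before the start, and its other 2 promoters none. Half-sites were in 16.1% of all promoters. The Txnip promoter held ACANNNTGT 170 to 162 bases before its start, found in 5.84% of all promoters, and the Ddit4 promoter held none of the 3 motifs in this window. Over the glucocorticoid-induced list, of which 27 of 30 genes were in the table with 36 promoters, 13.9% had the half-site and 13.9% had ACANNNTGT. GR is known to act largely from enhancers that lie outside such windows.

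The response of cultured cells to Dex, a GR agonist, was measured in separate libraries of the series. The 4 WT_Dex cultures, WT Th17Inf cells treated for 2 days, were compared with the 4 WT_Ctrl cultures, which share no library with the CNS comparison. The fit also held the 8 IL23R KO cultures of the same table, 4 with Dex and 4 control, which entered only the estimate of the spread. edgeR called 874 of 10813 genes (8.08%), 420 higher (3.88%) and 454 lower (4.2%) with Dex. The count was 531 without WT_Ctrl 2 and 571 without WT_Dex 3. Tsc22d3 rose by 1.57 ± 0.20 on the log2 scale (SE; edgeR adjusted p = 0.000106), Txnip by 1.28 ± 0.15, Sgk1 by 1.65 ± 0.18, Fkbp5 by 1.06 ± 0.18 and Ddit4 by 0.65 ± 0.17. Of the 23 list members tested in both, 9 rose with Dex and 0 fell, and of those 9, 6 were below 0 and 3 above 0 in GR cKO against GR WT. Pik3ip1, an inhibitor of PI3 kinase, was raised by Dex by 1.16 and stood at -0.16 ± 0.28 in GR cKO cells, or 0.03 without GR WT 2.

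**Figure D3:**
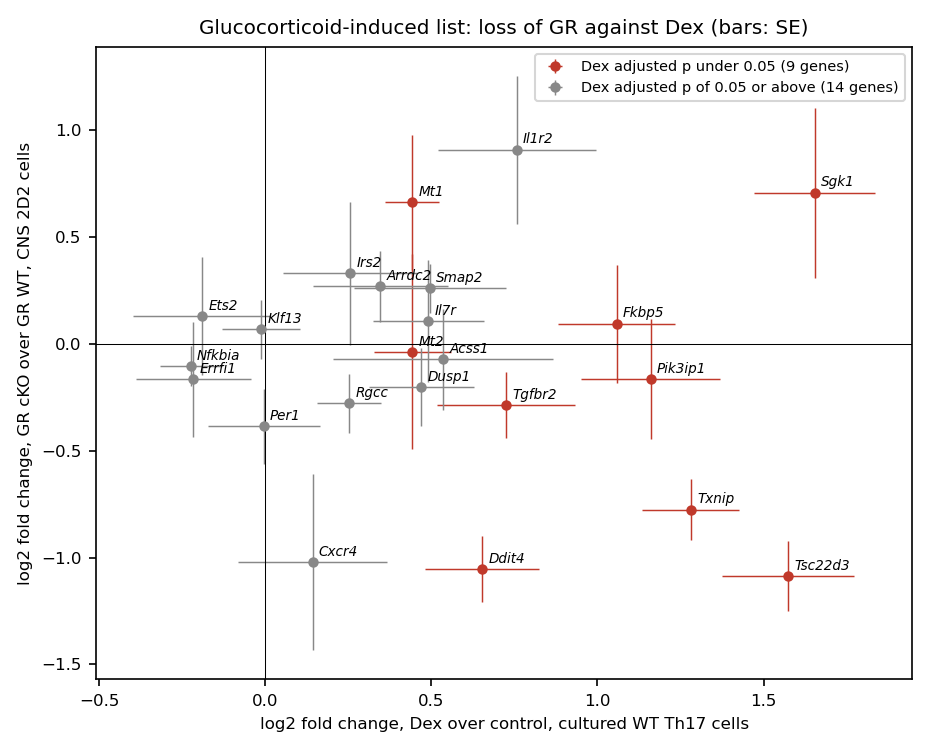
The 23 glucocorticoid-induced genes tested in both experiments, with the log2 fold change of Dex over control in cultured WT Th17 cells on the x axis and that of GR cKO over GR WT in CNS 2D2 cells on the y axis; bars are SE and red marks the 9 genes raised by Dex. Tsc22d3, Txnip and Ddit4 lie at the lower right, while Sgk1, Fkbp5 and Mt1 were raised by Dex and are above 0 on the y axis.

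Beyond the list, 9973 genes were tested in both experiments, of which Dex raised 388 (3.89%) and lowered 415 (4.16%). Of the 538 among them that were nominally lower in GR cKO, 58 (10.8%) were raised by Dex and 39 (7.25%) lowered. Of the 455 nominally higher ones, 23 (5.05%) were raised and 29 (6.37%) lowered. Of the 50 that DESeq2 called lower in GR cKO, 14 (28%) were raised by Dex and 7 (14%) lowered, and of the 35 that it called higher, 5 (14.3%) were raised and 0 lowered. Read the other way, 58 of the 388 Dex-raised genes (14.9%) were nominally lower in GR cKO and 23 (5.93%) higher, and their median was -0.08. Of the 415 Dex-lowered genes 39 (9.40%) were nominally lower in GR cKO and 29 (6.99%) higher, with a median of -0.04. Over all 9973 genes the 2 sets of fold changes had a Pearson r of -0.02 and a Spearman rho of 0.01, a description across genes, which are not independent. Among the 58 were Bcl2, Bcl2l11, Cd69, Cblb and Map6. Cd69, an early activation marker that holds T cells in tissue, had 91.3, 165, 121 and 141 CPM in GR cKO, against 253, 203, 206 and 266 CPM in GR WT, with no overlap and a log2 fold change of -0.75 ± 0.16, while Dex raised it by 1.21.

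The BCL2 family gave 2 of its 16 tested members with opposite roles. Bcl2 (chr1:106538178-106714274), which blocks apoptosis, had 20.3, 22.7, 15.6 and 18.0 CPM in GR cKO, against 33.4, 32.2, 29.1 and 34.0 CPM in GR WT, a log2 fold change of -0.65 ± 0.11 with adjusted p-values of 0.153 in edgeR and 0.00218 in DESeq2. Bcl2l11, whose product BIM triggers apoptosis, had 17.4, 21.6, 16.3 and 12.1 CPM in GR cKO, against 39.6, 30.5, 32.6 and 24.3 CPM in GR WT, a log2 fold change of -0.83 ± 0.18. Neither overlapped between the groups, and Dex raised both, by 0.64 and 1.32. Bcl2 was at -0.37 with the B cell covariate. The centred scores of that covariate were -0.03 to 1.83 in GR cKO and -1.27 to -0.51 in GR WT libraries. They did not overlap, so here and below fits with it cannot tell B cell RNA and genotype apart. In the family as a whole 4 members were nominally lower (against 5.31% of all genes) and 1 higher (5.69%), and the median was 0.02. Pmaip1 and Bbc3, which encode the BH3-only killers NOXA and PUMA, were the other 2 nominally lower, at -0.33 and -0.67. The higher one was Bcl2a1a, whose near-identical copies can share its reads, at 1.11 ± 0.38 and 0.69 with the macrophage covariate.

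The 15 genes seen in culture that had the smallest p among those lower in GR cKO, and reached a mean of 10 CPM, included Nr3c1, Tsc22d3, Ddit4, Txnip and Bcl2. None of the 15 overlapped between groups, DESeq2 called all 15, and their log2 fold changes lay between -1.31 and -0.63. Choosing genes by p in these same libraries favours both outcomes, so they are no separate support. The same holds for the other sets of 15 below. The range was -1.41 to -0.46 with the macrophage covariate and -0.96 to -0.28 with T cell marker scaling. Rhoh (chr5:65861213-65896700), a GTPase of blood cells that T cell receptor signalling needs, had 36.4, 43.5, 42.4 and 38.4 CPM in GR cKO, against 78.7, 74.2, 61.1 and 67.7 CPM in GR WT, a log2 fold change of -0.71 ± 0.10. Its DESeq2 adjusted p was 3.05e-06 and its edgeR adjusted p 0.144. Dusp2 (chr2:127336159-127338376), a phosphatase that switches off MAP kinases, had 77.5, 83.2, 97.1 and 70.7 CPM in GR cKO, against 167, 169, 276 and 151 CPM in GR WT, at -1.13 ± 0.22. Zfp36l2, which binds and destabilises mRNA, was at 8.60 to 13.6 CPM in GR cKO and at 19.8 to 26.6 CPM in GR WT libraries. The cell cycle regulator Ccnd2 (-0.77 ± 0.15), the protease gene Furin (-0.73 ± 0.14), the transcription factor gene Gtf2i (-0.63 ± 0.11), Map6 (-0.90 ± 0.16), Endod1 (-0.70 ± 0.12), the glutathione transferase gene Gstt1 (-1.31 ± 0.24) and Cd6 (-0.64 ± 0.13) made up the rest. None of Rhoh, Dusp2, Zfp36l2, Ccnd2, Furin, Gtf2i, Endod1, Gstt1 and Cd6 was called with Dex in culture.

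The 15 genes seen in culture with the smallest p among those higher in GR cKO had log2 fold changes of 0.50 to 2.30 and edgeR adjusted p-values of 0.153 to 0.236, and 14 of them did not overlap. Khk (chr5:30921431-30931248), the kinase that starts fructose metabolism, had 31.0, 26.4, 25.9 and 20.5 CPM in GR cKO, against 13.8, 14.0, 15.5 and 16.4 CPM in GR WT, a log2 fold change of 0.90 ± 0.15 that was 0.71 with the macrophage covariate. Rasgrp2, an activator of the integrin regulator RAP1, had 11.5, 19.8, 15.6 and 14.0 CPM in GR cKO, against 6.11, 8.89, 8.55 and 9.27 CPM in GR WT, at 0.99 ± 0.19. Both were without overlap. Gpnmb, a membrane glycoprotein of macrophages, had 23.2, 22.4, 34.2 and 8.76 CPM in GR cKO, against 3.71, 3.09, 7.28 and 5.34 CPM in GR WT. Its log2 fold change was 2.30 ± 0.42, or 1.80 with the macrophage covariate. It was at 1.95 CPM in WT control cultures and Dex raised it there by 3.20. Gpnmb is also on the macrophage marker list, and which cells its RNA in the CNS libraries came from was not tested. The others were Cep85 (0.51), S100a1 (0.92), H2-Ob (1.03), Dcxr (1.05), Fbxw4 (0.50), Cstb (0.76), the noncoding RNA Snhg12 (0.58), Apobec1 (1.01), AB124611 (0.78), Zfp993 (1.30), Dpp8 (0.59) and Gngt2 (0.53). With the macrophage covariate Apobec1 was at 0.53 and Cstb at 0.48. With the B cell covariate Rasgrp2 was at 0.52, H2-Ob, a class II chaperone subunit of B cells, at 0.39 and Gpnmb at 1.53. Zfp993 belongs to a cluster of similar zinc finger genes that can share reads.

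Genes of the T cell receptor complex and its proximal signalling were largely below 0, but edgeR called none after adjustment. All 27 were tested, and 18 (against 5.31% of all genes) were nominally lower in GR cKO and 0 higher. DESeq2 called 5 lower (against 0.502% of all genes), among them Cd5, Cd6, Cd3e and Cblb. In CPM 12 were lower without overlap (against 5.37% of all genes), and only Vav1 had a log2 fold change above 0. Cd5 (69.7, 96.0, 94.5 and 82.6 CPM in GR cKO, against 173, 144, 126 and 129 CPM in GR WT) and Cd6, both inhibitory scavenger receptors on T cells, were each at -0.64 ± 0.13. Cd3e, a chain of the receptor complex, had 260, 332, 321 and 331 CPM in GR cKO, against 546, 514, 522 and 376 CPM in GR WT, a log2 fold change of -0.56 ± 0.14. Cblb, the ubiquitin ligase that limits activation, was at -0.53 ± 0.12, or -0.84 with the B cell covariate. The edgeR adjusted p-values of these 4 genes were between 0.157 and 0.240. Other chains and kinases differed less: Cd3g was at -0.35 ± 0.15, Lck at -0.22 ± 0.13 and Lat at -0.15 ± 0.11, and the receptor chain constant regions Trbc2 and Trac at -0.29 ± 0.14 and -0.05 ± 0.15. Without GR cKO 5 or GR WT 1 Trac was at 0.04 or 0.05, and with the macrophage covariate Trac was at 0.12 and Lat at 0.03.

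The median of the receptor signalling list was -0.32, against -0.00 for all genes, and it was -0.17 both with the macrophage covariate and without GR cKO 5 and GR WT 1. The summed level of 15 T cell markers was 16830, 24162, 21892 and 21790 CPM in the GR cKO libraries, against 33128, 26467, 25925 and 22873 CPM in the GR WT libraries. GR cKO 5 had the least and GR WT 1 the most, and the groups overlapped (exact permutation test over 70 splits, two-sided p = 0.0571, adjusted p = 0.190 over 15 sums). In libraries made from a fixed number of sorted cells, fewer T cells and less RNA per T cell cannot be told apart. With the B cell covariate the median of the receptor signalling list was -0.40. With T cell marker scaling it was 0.03, where the median of all genes was 0.35. That list shares members such as Cd3e, Cd5, Cd6 and Lck with the T cell markers. The scaling moved genes by similar but unequal amounts: Igkc from 4.82 to 5.04 and Spp1 from 1.50 to 1.93.

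**Figure D4:**
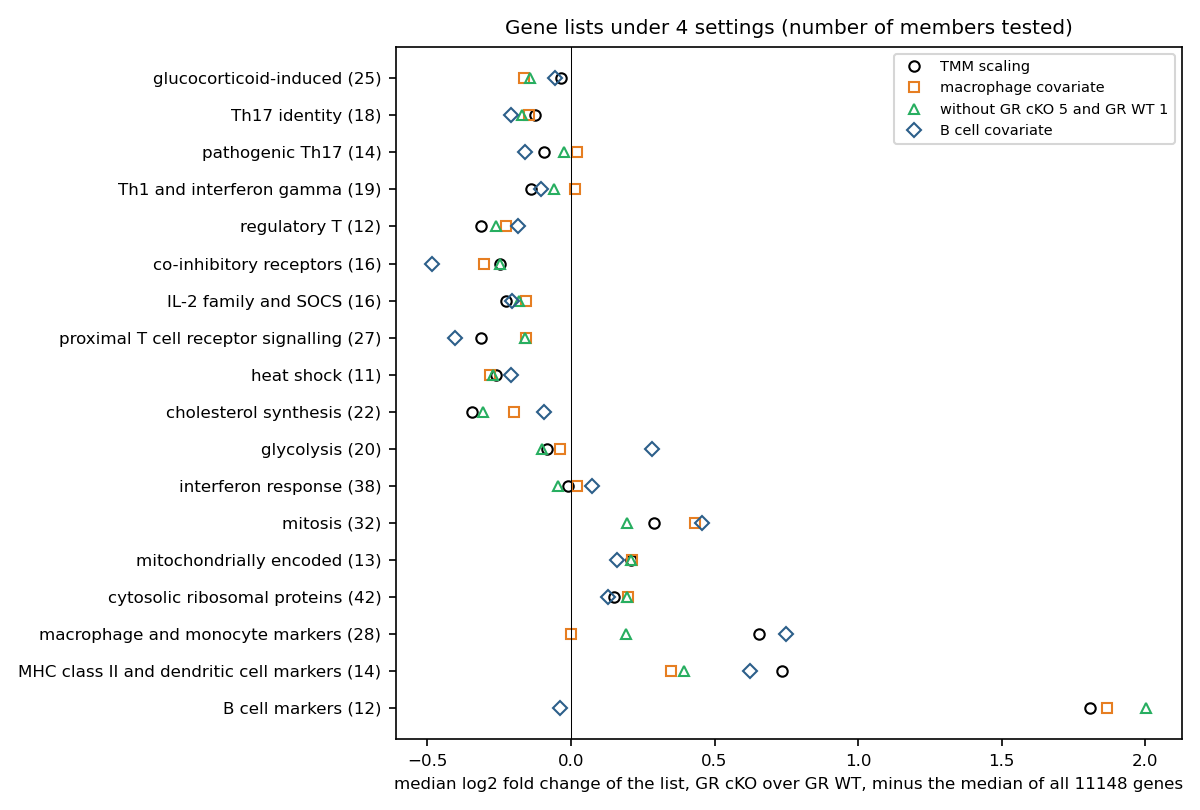
Median log2 fold change of each gene list, GR cKO over GR WT, minus the median of all 11148 genes under the same setting, with the number of members tested in brackets; the 4 symbols are TMM scaling, a macrophage covariate, the fit without GR cKO 5 and GR WT 1, and a B cell covariate. The lists left of 0 under all 4 are receptor signalling, co-inhibitory receptors, cholesterol, regulatory T, IL-2 family and SOCS, heat shock, Th17 identity and glucocorticoid-induced. The macrophage marker list lies at 0 with the macrophage covariate.

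Of 16 co-inhibitory receptors, 4 had a log2 fold change above 0 and 12 below, 0 were nominally higher (against 5.69% of all genes) and 6 lower (5.31%) in GR cKO, with a median of -0.25 (-0.31 with the macrophage covariate). Pdcd1, which encodes PD-1, had 44.3, 70.0, 50.3 and 59.4 CPM in GR cKO, against 99.3, 78.0, 106 and 88.0 CPM in GR WT, a log2 fold change of -0.64 ± 0.15. Tigit had 57.6, 66.4, 57.9 and 57.5 CPM in GR cKO, against 124, 94.1, 121 and 70.3 CPM in GR WT, at -0.68 ± 0.18. Neither overlapped, and DESeq2 called both (adjusted p of 0.0194 and 0.0303). Ctla4 (-0.32 ± 0.14), Cd200 (-0.47 ± 0.19), Cd160 (-0.77 ± 0.26) and Cd200r1 (-0.58 ± 0.15) were the other 4, of which Cd200r1 has similar copies that can share its reads. Ctla4 was at -0.72 with the B cell covariate.

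Of 16 genes of the IL-2 receptor family and its SOCS inhibitors, 5 had a log2 fold change above 0, and the median was -0.23. In GR cKO 0 were nominally higher (against 5.69% of all genes) and 6 lower (5.31%). Il2rb, the beta chain shared by the IL-2 and IL-15 receptors, had 159, 238, 163 and 197 CPM in GR cKO, against 329, 287, 259 and 291 CPM in GR WT, a log2 fold change of -0.53 ± 0.11. Cish, a target and inhibitor of STAT5, had 92.2, 126, 73.7 and 112 CPM in GR cKO, against 176, 158, 148 and 153 CPM in GR WT, at -0.56 ± 0.14. Both were without overlap and were called by DESeq2, and the receptor gene Il21r and the signalling genes Stat5a, Jak1 and Jak3 were the other 4, at -0.35 to -0.26. With the B cell covariate Cish was at -0.23. The alpha chain Il2ra stood at -0.25 ± 0.17 and overlapped. In the regulatory T cell list 4 of 12 were nominally lower and 0 higher (Tnfrsf18, Tnfrsf9, Capg and Ctla4), with a median of -0.32. Of 20 NF-kB subunits and inhibitors 3 were nominally lower and 0 higher, against 5.31% and 5.69% of all genes. Tnfaip3, which encodes the inhibitor A20, was one of them, with 76.6, 96.8, 90.2 and 86.6 CPM in GR cKO, against 118, 122, 112 and 134 CPM in GR WT, a log2 fold change of -0.38 ± 0.09.

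Signature cytokines of Th17 cells were barely present in either group. Il17a was at no more than 0.275 CPM in GR cKO and 0.328 CPM in GR WT libraries, while it averaged 58.7 CPM in the WT control cultures. Il17f was at no more than 0.825 CPM in GR cKO and 1.26 CPM in GR WT libraries, against 74.3 CPM in culture. Il23r reached 0.218 CPM and Csf2 0.765 CPM, so a difference in these genes was not detectable at this depth. Il10 had 0.612, 1.24, 1.19 and 0.637 CPM in GR cKO, against 0.983, 3.73, 1.27 and 1.12 CPM in GR WT, too few counts to pass the filter, and the groups overlapped. Of 18 tested Th17 identity genes, 1 was nominally lower (Hif1a, at -0.23 ± 0.10) and 0 higher, against 5.31% and 5.69% of all genes. Their median was -0.13.

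The Th1 side was expressed more strongly. Ifng had 30.3, 65.5, 33.6 and 66.4 CPM in GR cKO, against 78.2, 58.6, 38.5 and 105 CPM in GR WT, groups that overlap, with a log2 fold change of -0.42 ± 0.32 that was 0.07 with the macrophage covariate. Nkg7, a granule protein of cytotoxic and Th1 cells, had 560, 970, 588 and 841 CPM in GR cKO, against 1601, 1259, 1117 and 1099 CPM in GR WT, without overlap. Its log2 fold change was -0.69 ± 0.17, or -0.45 with the B cell covariate, with adjusted p-values of 0.244 in edgeR and 0.0209 in DESeq2. Of the 19 tested Th1 genes 4 were nominally lower (Nkg7, Il12rb2, Stat4 and Ccl4) and 0 higher, against 5.31% and 5.69% of all genes. Their median was -0.14, or 0.00 with the macrophage covariate. The factor Tbx21 stood at -0.24 ± 0.16. Among the 14 tested genes of pathogenic Th17 cells 3 were nominally lower (Stat4, Ccl4 and Icos) and 0 higher. Among the 8 tested genes of non-pathogenic Th17 cells Ikzf3 was nominally lower, at -0.66 ± 0.16, and Il1rn higher, at 1.28 ± 0.43 (0.87 with the macrophage covariate).

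Of 21 tested cytokines and chemokines of T cells, 5 were nominally lower and 2 higher, against 5.31% and 5.69% of all genes. Xcl1 (chr1:164931644-164935527), which attracts cross-presenting dendritic cells, had 22.2, 45.2, 25.8 and 28.0 CPM in GR cKO, against 107, 60.4, 68.2 and 83.4 CPM in GR WT, a log2 fold change of -1.31 ± 0.22. Its adjusted p was 0.153 in edgeR and 2.42e-05 in DESeq2, and its log2 fold change was -0.93 with the macrophage covariate and -0.96 with T cell marker scaling. Ccl1, a ligand of CCR8, had 267, 616, 143 and 286 CPM in GR cKO, against 1017, 661, 827 and 748 CPM in GR WT, at -1.25 ± 0.34 (edgeR adjusted p = 0.270), or -0.33 with the B cell covariate. Neither overlapped, and both were under 1 CPM in the WT control cultures. Tnfsf14, Ccl4 and Lta, which encodes lymphotoxin alpha, were the other 3, at -0.50 to -0.39, and at -0.24, -0.09 and -0.08 with the B cell covariate. The 2 higher were Spp1, osteopontin, at 1.50 ± 0.44 (0.90 with the macrophage covariate), and Osm, at 1.01 ± 0.32 (0.35). Both are also made by myeloid cells. Of the genes under 1 CPM in culture that were lower in GR cKO, 15 with the smallest p had at least 10 CPM in 1 group, and 9 of these did not overlap. They included Vipr2 (-0.93 ± 0.25), Pvrig (-0.93 ± 0.27), Klre1 (-0.81 ± 0.28), Actn2 (-0.78 ± 0.27) and Samd9l (-0.37 ± 0.17), and members of families with similar copies that can share reads (Cd200r4, Ifi203, Ifi208 and Apol9b). A further 2 rested on GR WT 2 alone: the microglial gene Fcrls was at 221 CPM there and at 7.30 to 8.39 CPM in the other GR WT libraries, and Cbr2 at 54.0 CPM there and at 1.53 to 2.37 CPM in the others.

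Genes of growth and metabolism differed by small amounts. All 32 mitosis genes had log2 fold changes above 0 (median 0.29), but 0 of them were nominally higher. Aurkb, a mitotic kinase, had 28.6, 43.2, 16.4 and 36.9 CPM in GR cKO, against 18.0, 18.3, 13.1 and 40.4 CPM in GR WT, and GR WT 4 stood well above the other GR WT libraries. Of 36 DNA replication genes 1 was nominally lower, against 5.31% of all genes, and the median was -0.04. All 42 cytosolic ribosomal protein genes tested were above 0, 5 of them nominally higher, with a median of 0.15. All 13 mitochondrially encoded genes were above 0 and 6 were nominally higher, with a median of 0.20. Of these, mt-Nd1 had 2720, 2383, 2414 and 2388 CPM in GR cKO, against 1938, 2210, 1902 and 2230 CPM in GR WT, without overlap, a log2 fold change of 0.36 ± 0.10, and DESeq2 called it together with mt-Nd6. Of 41 nuclear genes of oxidative phosphorylation 2 were nominally higher and 0 lower, and of 20 glycolysis genes 2 were lower and 0 higher. Of all genes 5.69% were nominally higher and 5.31% lower.

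Of 22 tested cholesterol synthesis genes, 5 were nominally lower, among them Cyp51, Stard4, Srebf2 and Sqle, and 0 higher, with a median of -0.35. Cyp51, which demethylates lanosterol, had 8.72, 16.1, 10.7 and 14.96 CPM in GR cKO, against 23.8, 28.1, 13.6 and 27.4 CPM in GR WT, at -0.78 ± 0.23, and GR WT 3 lay below GR cKO 6 and 9. The list's median was -0.21 with the macrophage covariate and -0.09 with the B cell covariate. With both covariates it was -0.01, against -0.02 for all genes. Of 11 tested heat shock genes 3 were nominally lower (Hsph1, Dnaja1 and Dnajb1). Hsph1, a partner of HSP70, had 21.7, 34.9, 16.8 and 26.1 CPM in GR cKO, against 58.1, 67.6, 32.6 and 50.8 CPM in GR WT, at -0.98 ± 0.22. GR cKO 6 and GR WT 3 overlapped. With the B cell covariate it was at -0.41. Of 38 interferon response genes 4 were nominally higher and 5 lower, against 5.69% and 5.31% of all genes, with a median of -0.01. Ifi27l2a, the most abundant of them, had 1836, 2166, 1704 and 2077 CPM in GR cKO, against 4334, 2817, 3615 and 2690 CPM in GR WT, at -0.70 ± 0.16, while Oasl1 had 14.2, 10.9, 11.6 and 10.8 CPM in GR cKO, against 6.44, 4.89, 7.91 and 6.46 CPM in GR WT, at 0.99 ± 0.20. Neither gene overlapped, and DESeq2 called both.

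RNA of B cells was found at higher levels in most GR cKO libraries. Of 20 B cell markers 12 had enough counts to be tested, which for most of them rested on the GR cKO libraries. A marker that passes the filter through the group where it is high tends to lie above 0. The counts that follow are therefore no separate support for a difference. All 12 were above 0, 9 were nominally higher (against 5.69% of all genes) and DESeq2 called 5 higher (against 0.592%). Their median was 1.81, and -0.03 with the B cell covariate, which was built from these markers. Igkc, the constant region of the kappa light chain, had 21.6, 286, 427 and 177 CPM in GR cKO, against 3.82, 5.67, 13.1 and 12.2 CPM in GR WT, a log2 fold change of 4.82 ± 0.81. Cd79a, a signalling chain of the B cell receptor, had 3.98, 9.35, 22.7 and 10.03 CPM in GR cKO, against 1.09, 1.03, 2.22 and 2.53 CPM in GR WT. Neither overlapped, and both were under 1 CPM in WT control cultures. Cd79b, Ighd and Vpreb3 were also nominally higher, at 1.63 to 2.42, and Ms4a1, Pax5 and Ebf1, which define B cells, stayed under the filter at no more than 5.29 CPM. The marker list summed to 140, 439, 1011 and 334 CPM in GR cKO, against 77.2, 144, 107 and 101 CPM in GR WT, and to 80.9 to 102 CPM in the control cultures. GR cKO 7 had the most and GR cKO 5 lay within the range of GR WT. The ratio of the mean sums was 4.48, and 2.84 without GR cKO 7.

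Immunoglobulin genes separated the groups. Summed over 393 genes they came to 157, 1030, 2121 and 660 CPM in GR cKO, against 99.9, 131, 115 and 119 CPM in GR WT, a ratio of means of 8.55, without overlap. Without GR cKO 7 the ratio was 5.31. Such a difference was not limited to GR. In the separate CHD1 experiment of the series, immunoglobulin genes summed to 149 to 1671 CPM in 4 CHD1 KO CNS libraries. They summed to 61.6 to 102 CPM in 3 CHD1 WT CNS libraries. B cell markers summed to 122 to 575 CPM and 55.0 to 87.8 CPM there. For the immunoglobulin sums of GR cKO against GR WT the exact permutation test gave p = 0.0286 (two-sided), the smallest that 70 splits allow. Its adjusted p was 0.190 over 15 sums. Variable segments differed from one library to the next. Ighv1-26 had 0, 2.48, 356 and 4.46 CPM in GR cKO libraries and 0 in every GR WT library. Igkv8-24 was at 257 CPM in GR cKO 7, Igkv1-110 and Ighv1-12 at 213 and 183 CPM in GR cKO 6, and Ighv1-9 and Igkv4-59 at 113 and 76.7 CPM in GR cKO 9. The heavy chain constant regions were split in the same way: Igha, of IgA, was at 134 CPM in GR cKO 6 and 64.8 CPM in GR cKO 9, and Ighg2c, of IgG2c, at 102 CPM in GR cKO 7, with no more than 0.529 CPM of either in any other library. Jchain, which joins IgA and IgM, had 0.153, 25.3, 27.7 and 15.3 CPM in GR cKO, against 0, 0, 0 and 0.140 CPM in GR WT. Jchain, Igha and Ighg2c are on the list of 15 plasma cell markers. That list summed to 119, 289, 278 and 198 CPM in GR cKO, against 114, 138, 105 and 135 CPM in GR WT, and the groups overlapped. Only 5 of its members were tested, 3 above 0 and 2 below, with a median of 0.01. Similar variable segments can share reads, so the level of any one of them is uncertain.

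**Figure D5:**
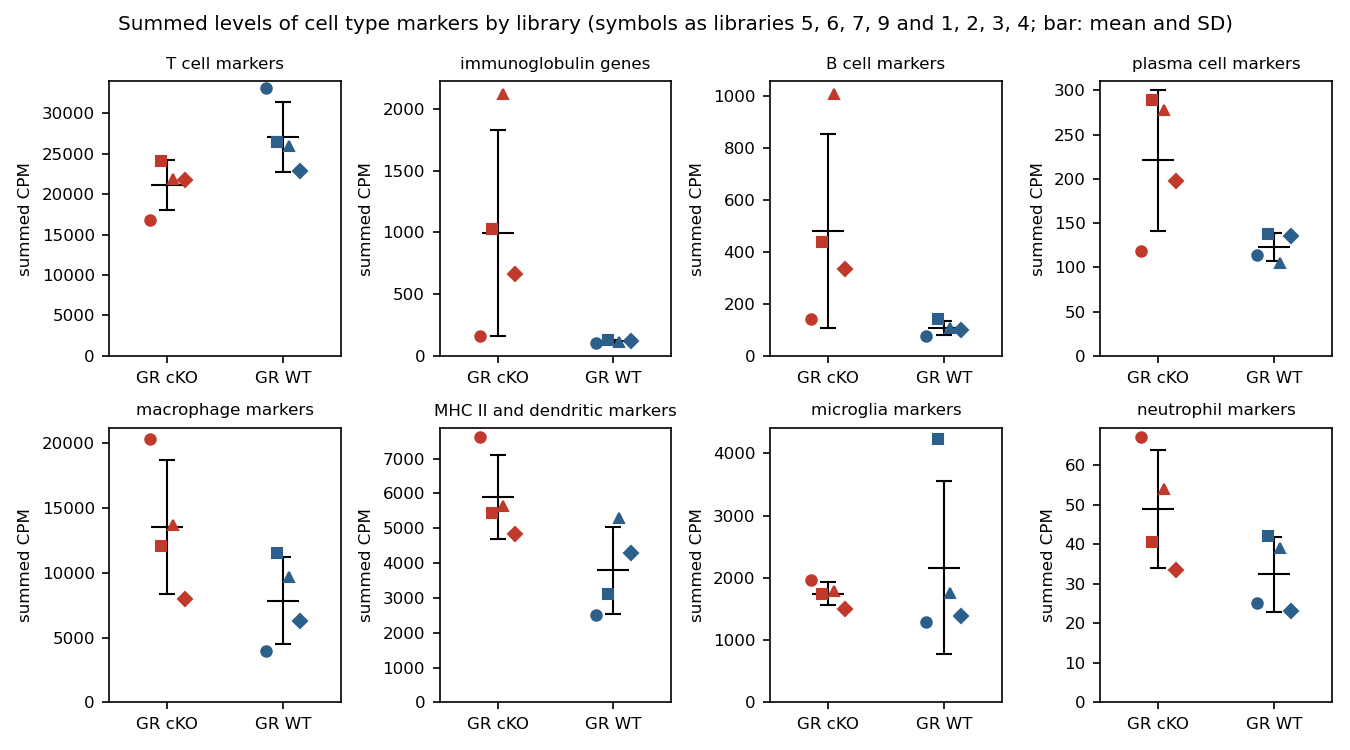
Summed CPM of 8 marker lists in each library, with 4 GR cKO libraries on the left and 4 GR WT libraries on the right of each panel; bars are mean and SD. Immunoglobulin sums in GR cKO were between 157 and 2121 CPM, above the 99.9 to 131 CPM of GR WT, and GR WT 2 stands apart for microglia at 4234 CPM.

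Macrophage RNA was present in all 8 libraries and varied within both groups. The 28 macrophage and monocyte markers, all tested, summed to 20352, 12052, 13699 and 7953 CPM in GR cKO, against 3994, 11492, 9649 and 6277 CPM in GR WT, and to only 68.8 to 75.9 CPM in the control cultures. GR cKO 5 was highest and GR WT 1 lowest, and the other libraries overlapped (exact permutation p = 0.114, two-sided, adjusted p = 0.190). In GR cKO 11 of the 28 were nominally higher (against 5.69% of all genes) and 0 lower (5.31%), and DESeq2 called 3 higher (against 0.592%). The list's median was 0.65 with all libraries, 0.18 without GR cKO 5 and GR WT 1, and -0.01 with the macrophage covariate, which was built from these markers. Chil3, a chitinase-like protein of alternatively activated macrophages, had 2621, 822, 666 and 190 CPM in GR cKO, against 12.2, 9.53, 182 and 67.4 CPM in GR WT, a log2 fold change of 4.04 ± 1.08 that was 1.81 with the covariate. Arg1, arginase, had 825, 322, 179 and 162 CPM in GR cKO, against 8.95, 48.2, 142 and 159 CPM in GR WT, at 2.14 ± 0.80 and 0.54 with the covariate. Neither overlapped, although GR cKO 9 and GR WT 4 nearly met for Arg1. Lyz2, Ctss and Tyrobp, which mark myeloid cells in general, were at 1.15 ± 0.43, 0.80 ± 0.26 and 0.66 ± 0.27, and all 3 overlapped.

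Of the genes under 1 CPM in culture and higher in GR cKO, the 15 with the smallest p that reached 10 CPM were largely genes of this kind. Beside Cd79a and Chil3 they held Cybb (1.24), the oxidase of phagocytes, Itgax (1.00), which encodes CD11c, Mpeg1 (1.03), a perforin of macrophages, Il1a (1.17), Mgst1 (2.36), Pla2g7 (1.71), Arl11 (1.36), Ms4a8a (2.38), Hp (2.28), Apoc2 (2.08), Fam26f (0.76), Cryba4 (0.55) and Oasl1. With the macrophage covariate Pla2g7 was at 0.71, Mgst1 at 1.39, Hp at 1.00 and Cybb at 0.56. Il1a, interleukin 1 alpha, had 28.7, 23.5, 17.3 and 19.3 CPM in GR cKO, against 6.44, 9.79, 14.1 and 12.1 CPM in GR WT, without overlap, and was 0.76 with the covariate.

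Antigen presentation genes lay on the same side: of 18 class II and dendritic cell markers 14 were tested, and all 14 were above 0. Of the 14, 8 were nominally higher, against 5.69% of all genes, with a median of 0.73 (0.34 with the macrophage covariate). Their sum was 7620, 5435, 5641 and 4839 CPM in GR cKO, against 2497, 3105, 5301 and 4286 CPM in GR WT, and GR cKO 9 lay below GR WT 3. Ciita, the class II transactivator, had 16.1, 11.0, 11.5 and 13.1 CPM in GR cKO, against 4.47, 6.31, 9.18 and 10.4 CPM in GR WT, without overlap, at 0.87 ± 0.28. Of 14 neutrophil markers 4 were tested and 1, S100a8, was nominally higher, at 18.3, 6.88, 5.68 and 2.39 CPM in GR cKO, against 0.873, 0, 0.633 and 0.562 CPM in GR WT. Its partner S100a9 reached 0.793 CPM, and Camp, Ngp and Mpo were at 0 in every library. Csf3r, the receptor of the growth factor G-CSF, was at 19.3 to 31.0 CPM in GR cKO and at 13.97 to 33.1 CPM in GR WT libraries. The list summed to 67.1, 40.6, 54.0 and 33.4 CPM in GR cKO, against 25.2, 42.0, 38.9 and 23.2 CPM in GR WT. Microglia markers summed to 1501 to 1959 CPM in GR cKO and to 1297 to 4234 CPM in GR WT libraries. The difference of the mean sums, GR cKO minus GR WT, was -419 CPM, but 270.3 CPM without GR WT 2. The part of B cell, plasma cell and macrophage RNA in the results for other genes was not tested beyond the covariates and the smaller set of libraries given beside them.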

How the data were processed

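RNA was measured in bulk in all groups, from 2000 sorted or live cells a library, by sequencing of amplified polyadenylated RNA. The deposited values are estimated counts per gene symbol, unnormalized whole numbers, which the authors made with RSEM 1.3.3 on mm10, per the submitters' processing notes. The aligner, the gene annotation and the use of strand are not given in the sources used here. Every column of the tables used was matched to a sample. Of the series, the lymph node libraries of the CHD1 experiment were not used here. No 2 libraries of the same group agreed within sampling noise in a chi-square test over genes. GR cKO libraries were not compared with GR WT libraries in this way. Library totals are given in the text, and limits from a count of 0 cover counting error only.

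Genes were filtered with filterByExpr (minimum count 10, minimum total 15), scaled by TMM and tested with edgeR 4.0.16 (glmQLFit and glmQLFTest, R 4.3.3) over the 8 libraries, without covariates, with Benjamini-Hochberg adjustment over all genes tested. The SE is the unshrunken log2 fold change divided by the root of the F statistic. The Dex comparison was fitted on the 16 culture libraries of its own table, 8 WT and 8 IL23R KO. Summed CPM of 15 marker lists was compared by an exact two-sided permutation test. The scripts were checked on simulated counts. DESeq2 1.42.0, other scalings and filters, and left-out libraries were the alternatives. The B cell and macrophage covariates were mean log2 CPM of the marker lists (prior count 2) in each library. The B cell covariate did not overlap between GR cKO and GR WT libraries, so its fits cannot tell B cell RNA and genotype apart. Scaling to T cell markers, leaving out GR WT 1 with GR cKO 5, both covariates together, the replicate block and the left-out libraries of the Dex comparison were chosen after seeing the data.

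Named are Nr3c1, a fixed set of Th17 and glucocorticoid genes, and up to 15 genes per direction with the smallest p and a mean of 10 CPM, apart for genes above and below 1 CPM in culture. Within lists, the members with the smallest p and the highest level are named. Other genes were chosen after their values were seen. Predicted genes and receptor segments were left out, and some genes are not reported here. The comparison, the gene lists and the members were chosen with earlier results of these data known. Coordinates are from GENCODE M21 (GRCm38), which held 30416 of 31053 symbols (97.9%). Fold changes of genes with similar copies are uncertain, since their reads can be shared.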

Additional observations from a re-analysis of the deposited data

Results flagged for a closer look

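In 342 groups of 4 libraries, the 2 groups of each named gene and of each marker sum, 15 values lay so far from the other 3 that the gap exceeded Dixon's 95% limit for 4 samples. Chance flags about 1 in 20 such groups. In 4 of the 15 the library was GR cKO 5: Bcl2a1a was at 83.2 CPM there, where the rest of its group had 39.6 to 43.0 CPM. Mgst1 was at 68.7 CPM there, against 20.5 to 26.3 CPM. The mitochondrial transcript mt-Nd1 was at 2720 CPM there, against 2383 to 2414 CPM, and Cd3e was low, at 260.4 CPM against 320.5 to 332 CPM. GR cKO 5 also had the highest macrophage sum and the lowest T cell marker sum.

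In GR cKO 6, Igkv1-110 was at 213 CPM, where the others of its group had 0 to 1.98 CPM. Tigit was at 66.4 CPM there, against 57.5 to 57.9 CPM, and gamma delta T markers summed to 14.0 CPM, against 5.81 to 7.03 CPM. Cd79b was at 24.8 CPM in GR cKO 7, against 8.44 to 10.3 CPM in the others. The red blood cell markers summed to 184 CPM in GR cKO 9, where the rest had 0 to 4.13 CPM.

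In the GR WT group, GR WT 2 stood apart for 3 values. Fcrls was at 221 CPM there, where the rest of GR WT had 7.30 to 8.39 CPM, Cbr2 at 54.0 CPM, against 1.53 to 2.37 CPM, and the microglia markers summed to 4234 CPM, against 1297 to 1753 CPM. Dusp2 was at 276 CPM in GR WT 3, against 151 to 169 CPM in the others. Cd226, an adhesion and costimulatory receptor, was at 101 CPM in GR WT 1, against 62.5 to 68.3 CPM. The chemokine receptor Ccr9 was at 1.27 CPM in GR WT 3, against 1.67 to 1.75 CPM.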

How the results depend on the processing

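At an adjusted p of 0.05 edgeR called 0 genes, and 0 also with DESeq2's size factors, at a mean of at least 10 CPM, without repeat features, without genes of other cell types, with the B cell covariate, with both covariates and with T cell marker scaling. DESeq2 called 122 genes, 37 of them on the lists. Without a filter edgeR called 4 (Nr3c1, Tsc22d3, Jchain and Igkc, with 3 on the lists), with the macrophage covariate 1 (Tsc22d3, which is on the lists), and without GR cKO 5 and GR WT 1 together 4, of which 3 are on the lists (Tsc22d3, Jchain and Igkc). Leaving out 1 library at a time gave 0 to 2 calls, and 0 to 2 on the lists. The 2 were Jchain and Igkc, without GR cKO 5. Genes at an unadjusted p under 0.05 numbered 1864 without a filter, 751 at 10 CPM, 499 with the B cell covariate, 672 with the macrophage covariate and 397 with both. With T cell marker scaling there were 3026 (2976 higher, which includes the shift of the median of all genes to 0.35). Without GR cKO 5 and GR WT 1 there were 610 such genes. Genes at that threshold numbered 783 to 1353 with 1 library left out. The cause of these changes was not tested.

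Of 156 named genes, 137 kept their direction under every setting run in which they were tested. Values with T cell marker scaling were read there against the median of all genes. With the macrophage covariate the direction turned for Fkbp5 (-0.30), Ifng (0.072), Lat (0.029), Sgk1 (-0.14), Tbx21 (0.0072), Trac (0.12) and Vav1 (-0.00062). With the B cell covariate it turned for Ighd (-0.16) and Il7r (-0.70). With both it turned for Apol9b (0.13), Capg (0.037), Ccl4 (0.026), Cd79b (-0.35), Ifng (0.14), Ighd (-0.61), Il2ra (0.030), Il7r (-0.56), Lta (0.031), Lyz2 (-0.31), Mt1 (-0.23), Sgk1 (-0.56), Tbx21 (0.086), Vav1 (-0.066) and Vcam1 (-0.085). Ighd and Cd79b are themselves part of the B cell covariate, as Lyz2 is of the macrophage one. Without GR cKO 5 and GR WT 1, Fkbp5 was at -0.26 and Trac at 0.14. With single libraries left out, Fkbp5 ran between -0.20 and 0.27, Il7r between -0.23 and 0.27, Pik3ip1 between -0.34 and 0.034 and Trac between -0.18 and 0.047. The difference of the microglia sums ran between -709 and 270.3 CPM and that of the astrocyte and neuron sums between -0.40 and 2.73 CPM. Medians of 43 lists stayed within 1 SD of the libraries in 758 of 808 alternative values, and 27 of the 43 lists had at least 1 beyond it, 19 of them with both covariates.

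No paired analysis was possible for GR cKO against GR WT because these groups share no replicate number. The Dex and control cultures share the numbers 1 to 4, but deviations of same-numbered libraries correlated at only -0.03 to 0.05, so the samples share only a number. With a replicate block in the 8 WT culture libraries, 984 genes were called, against 891 without it in the same libraries (874 in the fit with all 16). Without each culture library in turn the count was 531 to 829. In the CNS libraries, a count of 0 allows up to 0.328 to 0.478 CPM, which limits what can be said of Il17a and Il23r.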

Other observations

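Of 10 tested homing and egress genes 3 were nominally lower (Cd69, P2rx7 and Cxcr4) and 1 higher in GR cKO, where 5.31% of all genes were nominally lower and 5.69% higher. P2rx7, the ATP receptor that can trigger death of T cells, had 72.3, 73.7, 66.6 and 70.7 CPM in GR cKO, against 108, 107, 85.0 and 81.0 CPM in GR WT, without overlap, a log2 fold change of -0.32 ± 0.11 (SE), or -0.15 with the B cell covariate. Of 15 tested chemokine receptors 3 were nominally higher and 1 lower. Ccr1 and Ccrl2, which myeloid cells also carry, were at 1.32 ± 0.48 and 0.83 ± 0.26, and at 0.54 and 0.37 with the macrophage covariate. Ccr9 was at 1.03 ± 0.38 at no more than 5.41 CPM. Of 19 tested integrin and adhesion genes 3 were nominally higher, among them Itga5 at 1.23 ± 0.35 (0.65 with the macrophage covariate), and 2 lower, Itgb1 at -0.46 ± 0.17 and Cd226 at -0.45 ± 0.17 (-0.12).

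Of 16 tested TNF family and costimulation genes 4 were nominally lower and 0 higher, against 5.31% and 5.69% of all genes. Their median was -0.19, against -0.00 for all genes. Tnfsf10, the death ligand TRAIL, had 14.7, 19.4, 19.0 and 21.2 CPM in GR cKO, against 32.4, 28.6, 28.8 and 24.6 CPM in GR WT, without overlap, at -0.53 ± 0.14. Tnfrsf18 and Tnfrsf9, which encode the costimulatory receptors GITR and 4-1BB, were at -0.42 ± 0.12 and -0.63 ± 0.20, and at -0.17 and -0.22 with the B cell covariate. Of 15 tested genes of IL-23, IL-12 and IL-6 signalling 4 were nominally lower (Il12rb2, Il27ra, Tyk2 and Stat4) and 1 higher (Il1r2), with a median of -0.17. Of 23 tested immediate early genes 3 were nominally lower (Dusp2, Nr4a1 and Myc) and 0 higher, and the median was 0.00. Nr4a1, the nuclear receptor NUR77 that reports receptor signals, stood at -0.27 ± 0.10. Of 22 genes of protein folding in the endoplasmic reticulum 2 were nominally lower, Syvn1 and Hspa5, and 0 higher, against 5.31% and 5.69% of all genes. Of 19 tested amino acid response genes 2 were nominally higher, Trib3 at 0.87 ± 0.24 and Nupr1 at 0.84 ± 0.31 (0.31 with the macrophage covariate), and 1 was lower. Of the genes named here edgeR called 0 in GR cKO against GR WT after adjustment, and DESeq2 called Cd69 and Dusp2.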
